A study of Mus musculus with 16 samples.

Results

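Expression of 10 macrophage and Kupffer cell marker genes was followed in mouse liver: Clec4f, Vsig4, Marco and Cd5l, which mark the resident macrophage of the liver, Adgre1, Cd68, Csf1r and Lyz2, which mark macrophages and related myeloid cells in general, and Cd14 and Ccl2, which belong to endotoxin sensing and monocyte recruitment. They were chosen by gene symbol, as the 10 genes of 35275 in the deposited expression table whose mouse Ensembl ID carries a member symbol, and each symbol matched 1 row. RNA came from the livers of mice labelled wild type (WT) and of mice with a liver-specific knockout of Zfp36l1 (LKO, "L1 LKO" in the labels), kept on a control diet or on one containing ethanol. The 16 libraries fall into 4 groups of n = 4: WT on control diet, WT on ethanol diet, LKO on control diet and LKO on ethanol diet, numbered 1 to 4 within a group in the order of the records, which is not stated to be a pairing. Strain, sex, age, the driver of the deletion, the diet's composition and the feeding time are not given in the sources used here. Each library's title carries a number of its own, and the labels do not say what it marks or whether each library is a separate animal, so p-values measure the spread between these libraries. The series' title places the study in alcoholic fatty liver and inflammation and names the decay of Fgf21 messenger RNA as the process that ZFP36L1 controls. Whether markers of liver macrophages differ with the diet, with the genotype or with both is the comparison followed here.

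Kupffer cells are the macrophages that live inside the liver sinusoids, where they clear bacteria, endotoxin and aged blood cells from portal blood. They are maintained by signalling through the receptor for colony-stimulating factor 1, and when resident cells are lost, monocytes can enter the liver and take on their identity. In alcohol-fed animals, endotoxin from the gut is known to reach the liver, where CD14 passes it to the TLR4 receptor complex and macrophages release cytokines and the chemokine CCL2, which draws monocytes through the receptor CCR2. ZFP36L1 binds AU-rich stretches in the 3′ untranslated regions of messenger RNAs and shortens their life.

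Levels are given as FPKM, counted fragments scaled to the gene's length and the library's total, which can be compared between genes because they are per length. Reads worked out from the FPKM steps totalled 9890475 to 24768569 per library. WT ethanol library 2 had the lowest total (the other 15 had at least 19069903) and stood apart from the rest: its Spearman correlation across genes with other libraries was 0.664 to 0.721, against 0.858 to 0.985 among the others, and 22.52% of its reads were mitochondrial, against 3.64 to 6.97%. Values without it stand beside many of the results below. Within each group, libraries 1 and 2 lay on one side and libraries 3 and 4 on the other side of the main axis of variation, which held 40% of the variance within groups, and the labels name no batch that matches it. Zfp36l1 itself measured 9.79, 9.299, 25.5 and 14.8 FPKM in WT control libraries 1 to 4 and 9.87, 13.1, 20.99 and 23.3 in WT ethanol, against 1.03, 0.836, 1.42 and 1.3997 in LKO control and 0.688, 0.572, 1.597 and 1.76 in LKO ethanol, so every LKO library was below every WT library. The 10 hepatocyte markers (Alb and others) were all detected and summed to 47119 to 79135 FPKM per library.

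Clec4f, a lectin receptor made by mouse Kupffer cells and hardly by other cells, did not differ between the groups beyond the spread of the libraries. It measured 89.05, 70.3, 33.3 and 43.9 FPKM in WT control libraries 1 to 4 and 52.3, 46.1, 85.8 and 94.4 in WT ethanol. In LKO it measured 82.8, 103, 58.9 and 30.4 on control diet and 52.9, 109.5, 19.3 and 31.4 on ethanol. All 4 groups overlapped, and LKO ethanol held both the highest library (library 2) and the lowest (library 3). The log2 difference of FPKM + 1 between ethanol and control was 0.27 (SE 0.49, adjusted p = 0.798) in WT and -0.52 (SE 0.49, adjusted p = 0.8902) in LKO, where adjusted p-values throughout are those of the limma fit with Benjamini-Hochberg adjustment over the 11298 genes tested. In whole liver RNA, fewer cells of a type and less RNA per cell cannot be told apart, for this gene as for all others below.

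Cd5l, a secreted protein of tissue macrophages that binds lipids and keeps the cells alive, was the most abundant of the 10 genes by group mean in WT control (66.8 ± 33.7 FPKM, SD, n = 4) and LKO control (88.6 ± 43.01). Its values were 108, 78.3, 29.7 and 51.7 in WT control and 44.6, 21.5, 104 and 96.7 in WT ethanol, then 114, 131, 73.2 and 35.6 in LKO control and 49.3, 107, 16.6 and 28.7 in LKO ethanol. The groups overlapped in all comparisons, and the ethanol difference was -0.10 (SE 0.60, adjusted p = 0.946) in WT and -0.97 (SE 0.60, adjusted p = 0.717) in LKO. Vsig4, a complement receptor with which Kupffer cells catch bacteria, measured 47.02, 34.2, 12.2 and 15.4 in WT control, 21.2, 2.68, 34.4 and 36.1 in WT ethanol, 47.6, 43.8, 23.03 and 10.5 in LKO control and 22.5, 47.97, 7.403 and 10.996 in LKO ethanol. Its lowest value of all, 2.68 FPKM (38 reads), was in WT ethanol library 2, and the other 3 libraries of that group lay inside the range of WT control. The ethanol difference of Vsig4 in WT was -0.44 (SE 0.71) with that library and 0.32 (SE 0.60) without it, neither past the threshold.

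Within groups these 3 genes moved together and followed the sides. On the control diet they were higher in libraries 1 and 2 than in libraries 3 and 4 in both genotypes, as they were in LKO ethanol, whereas in WT ethanol they were higher in libraries 3 and 4. The ethanol difference of Clec4f in WT was 1.21 among libraries 3 and 4 and -0.68 among libraries 1 and 2, that of Cd5l was 1.33 and -1.54, and that of Vsig4 was 1.30 and -2.19. In LKO both sides gave negative ethanol differences for the 3 genes, from -1.19 for Cd5l among libraries 3 and 4 to -0.28 for Clec4f among libraries 1 and 2.

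**Figure D1:**
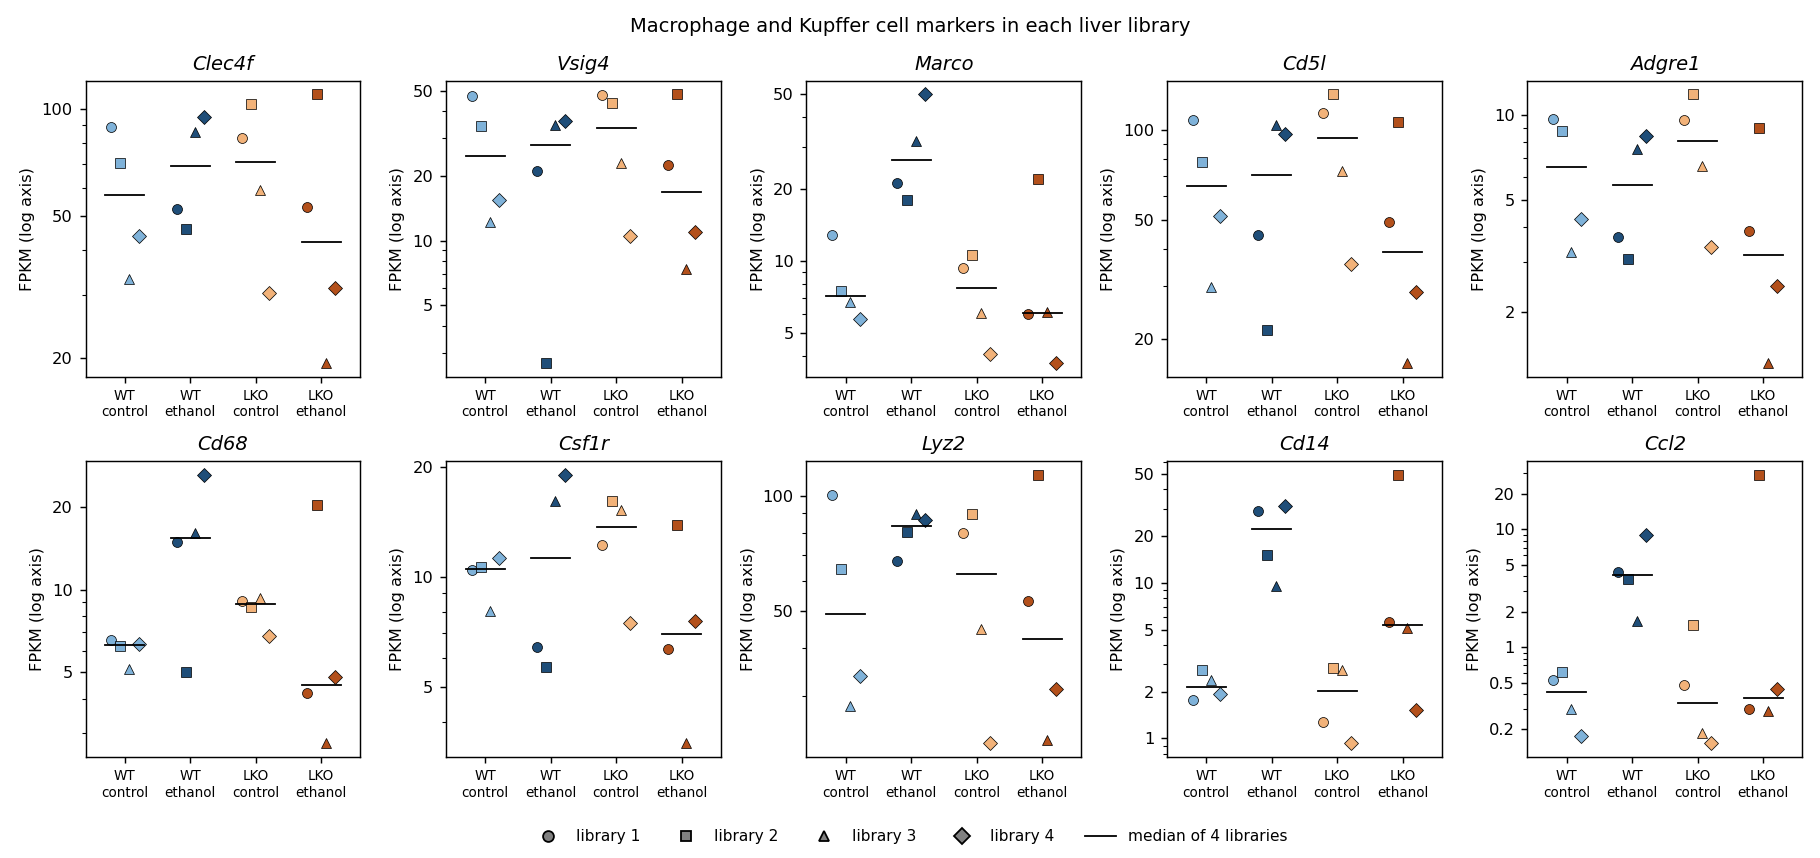
FPKM of each of the 10 genes (log axis) in the 4 libraries of each group, with symbols for library number and a line at the group median. Cd14, Ccl2 and Marco are higher in all 4 WT ethanol libraries than in any WT control library, while Clec4f, Vsig4, Cd5l, Adgre1, Csf1r and Lyz2 overlap between all groups.

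Marco, a scavenger receptor for bacteria and particles, was the Kupffer cell gene that rose with ethanol in WT livers. It measured 12.8, 7.45, 6.74 and 5.73 FPKM in WT control and 21.1, 17.96, 31.6 and 49.6 in WT ethanol. All 4 WT ethanol libraries were above all WT control libraries, the group means were 8.19 ± 3.17 and 30.1 ± 14.2 FPKM (SD, n = 4), a ratio of 3.67, and the log2 difference was 1.71 (SE 0.44, adjusted p = 0.0379). Without WT ethanol library 2 the difference was 1.91 (SE 0.46, adjusted p = 0.0185), and it was 2.49 among libraries 3 and 4 and 0.92 among libraries 1 and 2. The call was lost, at adjusted p-values of up to 0.117, in the limma fits that left out 1 of the 4 WT control libraries, WT ethanol library 3 or 4, LKO control library 1 or 3, or LKO ethanol library 3. It was also lost, at adjusted p-values of up to 0.0944, with pseudocounts of 0.1 and 0.01, a wider filter (all genes above 0 in at least 4 libraries), scaling to equal sums or equal sums of nuclear genes, only the groups compared in the fit, and voom on whole reads.

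In LKO, Marco measured 9.34, 10.5, 6.02 and 4.06 FPKM on control diet and 5.99, 22.1, 6.11 and 3.73 on ethanol diet. Library 2 of LKO ethanol lay among the WT ethanol values, while libraries 1 and 3 lay inside the range of LKO control and library 4 just below it. The ethanol difference in LKO was 0.089 (SE 0.44, adjusted p = 0.9996), and LKO differed from WT on the ethanol diet by -1.75 (SE 0.44, unadjusted p = 9.73e-04, adjusted p = 0.172), which did not pass the threshold. That genotype difference passed it in the fits without LKO ethanol library 2 and without WT ethanol library 1. The test of whether the ethanol response of Marco differed between the genotypes gave an interaction of -1.62 (SE 0.62, unadjusted p = 0.0186, adjusted p = 0.927).

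The promoters of 4 Kupffer cell genes are shown because Clec4f, Cd5l and Vsig4 moved together across libraries and Marco did not always follow them. Each is the 250 bases before the RefSeq start of the gene (GRCm38.p6), read 5′ to 3′ on the strand of the gene, with capitals at the core GAGGAA of PU.1, the factor that specifies myeloid cells. Both strands were searched, so TTCCTC is in capitals too.
Clec4f (chr6:83656117-83656366, minus strand): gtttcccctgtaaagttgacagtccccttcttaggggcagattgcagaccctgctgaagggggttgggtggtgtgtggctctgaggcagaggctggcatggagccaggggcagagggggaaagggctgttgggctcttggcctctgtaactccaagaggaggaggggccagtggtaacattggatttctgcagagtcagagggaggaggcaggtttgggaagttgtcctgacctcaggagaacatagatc
Cd5l (chr3:87357631-87357880, plus strand): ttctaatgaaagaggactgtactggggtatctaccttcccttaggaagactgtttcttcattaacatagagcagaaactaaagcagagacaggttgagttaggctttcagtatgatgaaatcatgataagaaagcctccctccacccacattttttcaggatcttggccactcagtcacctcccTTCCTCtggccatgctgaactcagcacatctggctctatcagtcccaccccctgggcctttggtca
Vsig4 (chrX:96293439-96293688, minus strand): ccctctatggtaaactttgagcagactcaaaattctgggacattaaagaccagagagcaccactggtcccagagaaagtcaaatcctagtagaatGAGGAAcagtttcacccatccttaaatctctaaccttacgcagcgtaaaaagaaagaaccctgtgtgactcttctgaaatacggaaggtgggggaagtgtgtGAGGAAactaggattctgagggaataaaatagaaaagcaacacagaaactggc
Marco (chr1:120505025-120505274, minus strand): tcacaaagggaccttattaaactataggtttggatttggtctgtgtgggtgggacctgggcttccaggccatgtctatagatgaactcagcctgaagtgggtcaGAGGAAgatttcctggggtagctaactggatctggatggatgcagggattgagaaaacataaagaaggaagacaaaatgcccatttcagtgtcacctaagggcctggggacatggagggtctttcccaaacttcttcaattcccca

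Vsig4 held 2 PU.1 cores in this window, Cd5l and Marco 1 each and Clec4f 0. Promoters were found for 6 of the 10 genes, with Cd68 and Lyz2 as the others, and 4 of the 6 held a PU.1 core against 23.1% of all 27025 mouse promoters in the same table. The AP-1 motif TGANTCA stood in 1 of the 6 (Cd68), against 6.9% of all promoters, and overlapped no PU.1 core. These matches describe letters in a window and were not tested for use by a factor.

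The 4 general macrophage genes did not pass the test in any comparison in the fit of all libraries. Adgre1, which encodes the F4/80 antigen, measured 9.63, 8.76, 3.25 and 4.26 FPKM in WT control and 3.67, 3.08, 7.56 and 8.399 in WT ethanol. In LKO it measured 9.59, 11.8, 6.57 and 3.398 on control diet and 3.87, 8.97, 1.32 and 2.48 on ethanol. The groups overlapped, the ethanol difference was -0.15 (SE 0.45, adjusted p = 0.888) in WT and -0.88 (SE 0.45, adjusted p = 0.615) in LKO, and the lowest library of all was LKO ethanol 3.

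Csf1r, the receptor for colony-stimulating factor 1 on which these cells depend, varied little in WT control (10.4, 10.7, 8.05 and 11.3 FPKM) and widely in WT ethanol (6.41, 5.66, 16.1 and 19.03). It measured 12.2, 16.1, 15.2 and 7.45 in LKO control and 6.35, 13.9, 3.496 and 7.56 in LKO ethanol. WT ethanol libraries 3 and 4 were above and libraries 1 and 2 below every WT control library, and the ethanol difference was 0.048 (SE 0.39, adjusted p = 0.963) in WT and -0.72 (SE 0.39, adjusted p = 0.633) in LKO. Lyz2, the lysozyme of macrophages, monocytes and neutrophils, measured 101, 64.3, 28.3 and 33.8 in WT control and 67.4, 80.3, 89.8 and 86.4 in WT ethanol, then 80.1, 89.5, 45.03 and 22.6 in LKO control and 53.1, 113, 23.01 and 31.4 in LKO ethanol. Its 4 WT ethanol libraries were close together and inside the range of WT control, with an ethanol difference of 0.68 (SE 0.50, adjusted p = 0.488) in WT and -0.18 (SE 0.50, adjusted p = 0.995) in LKO. Lyz2 has a near-identical neighbour, Lyz1, and reads of the 2 genes could have been split or dropped in the authors' counting, so its level is uncertain.

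Cd68, a membrane protein of lysosomes that rises in phagocytes full of debris, varied little in WT control, at 6.57, 6.24, 5.14 and 6.36 FPKM. It measured 14.9, 5.01, 16.1 and 26.2 in WT ethanol, 9.11, 8.65, 9.33 and 6.79 in LKO control and 4.21, 20.3, 2.75 and 4.79 in LKO ethanol. In WT ethanol, libraries 1, 3 and 4 were above every WT control library and library 2 was below them. The ethanol difference in WT was 1.04 (SE 0.46, adjusted p = 0.2196) over all libraries, and it was 1.47 (SE 0.41, adjusted p = 0.0375) without WT ethanol library 2, which passed the threshold. Without that library the endothelial markers Lyve1 and Cdh5 and the stellate cell markers Pdgfrb and Des were also called higher in WT (9.48% of all genes were called), and their part in the difference of Cd68 was not tested. Every LKO control library was above every WT control library, with a log2 difference of 0.42 (SE 0.46, adjusted p = 0.9997), and Cd68 was the 1 gene of the 10 whose groups stood apart in that comparison, against 1.61% of all genes tested that stood apart in the same direction. In LKO ethanol only library 2 exceeded the LKO control range, and the other 3 libraries were below it.

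Cd14, the receptor that binds endotoxin and hands it to TLR4, had the largest difference of the 10 genes between ethanol and control diet in WT livers on the log2(FPKM + 1) scale, and it passed the test. It measured 1.77, 2.75, 2.38 and 1.92 FPKM in WT control (53, 103, 91 and 63 reads) and 29.2, 15.2, 9.56 and 31.4 in WT ethanol (894, 236, 365 and 982 reads). No WT ethanol library overlapped WT control, and the means were 2.203 ± 0.445 and 21.3 ± 10.6 FPKM (SD, n = 4), a ratio of 9.68. The log2 difference was 2.67 (SE 0.63, adjusted p = 0.0253), 2.78 (SE 0.70, adjusted p = 0.0229) without WT ethanol library 2, 2.56 among libraries 3 and 4 and 2.78 among libraries 1 and 2. The call was lost, at adjusted p-values of up to 0.0758, in the limma fits that left out 1 of the 4 WT control libraries or WT ethanol library 4, and it was also lost with the wider filter and in voom on whole reads, at up to 0.0586.

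In LKO livers Cd14 measured 1.29, 2.83, 2.75 and 0.9299 FPKM on control diet and 5.64, 49.6, 5.101 and 1.52 on ethanol diet. Libraries 1 to 3 of LKO ethanol were above every LKO control library, library 4 was inside their range, and library 2 had the highest Cd14 of all 16. The mean in LKO ethanol, 15.5 ± 22.9 FPKM (SD, n = 4), rests on library 2, and the group median was 5.37, against 22.2 in WT ethanol. The ethanol difference in LKO was 1.59 (SE 0.63, unadjusted p = 0.0222, adjusted p = 0.417), and 0.73 without library 2. The interaction was -1.08 (SE 0.89, adjusted p = 0.927), so a difference in response between the genotypes was not detected. Averaged over both genotypes, Cd14 rose with ethanol by 2.13 (SE 0.45, adjusted p = 0.00736), with 7 of 8 ethanol libraries above all 8 control libraries.

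Ccl2, the chemokine that recruits monocytes through CCR2, was near the detection limit on the control diet. It measured 0.526, 0.612, 0.2996 and 0.175 FPKM in WT control (11, 16, 8 and 4 reads) and 0.481, 1.56, 0.188 and 0.152 in LKO control (12, 41, 5 and 4 reads). On ethanol it measured 4.36, 3.78, 1.65 and 9.02 in WT (93, 41, 44 and 197 reads) and 0.298, 29.1, 0.285 and 0.442 in LKO (7, 672, 7 and 12 reads). All 4 WT ethanol libraries were above all WT control libraries, whereas in LKO ethanol library 2 alone was high, with the highest value of all 16, and the other 3 lay inside the range of LKO control. The ethanol difference was 1.88 (SE 0.74, adjusted p = 0.167) in WT and 0.95 (SE 0.74, adjusted p = 0.818) in LKO, neither past the threshold, and the WT difference passed it without LKO ethanol library 2 (adjusted p = 0.00431 in the limma fit), whose spread the fit otherwise shares. By the ratio of mean FPKM, 11.7 in WT, the change of Ccl2 was larger than that of Cd14, from control libraries of few reads. Ccl2 entered the test because 6 libraries reached 1 FPKM, among them all 4 of WT ethanol, so neither its passing the filter nor its p in the fit without LKO ethanol library 2 is evidence of a difference.

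**Figure D2:**
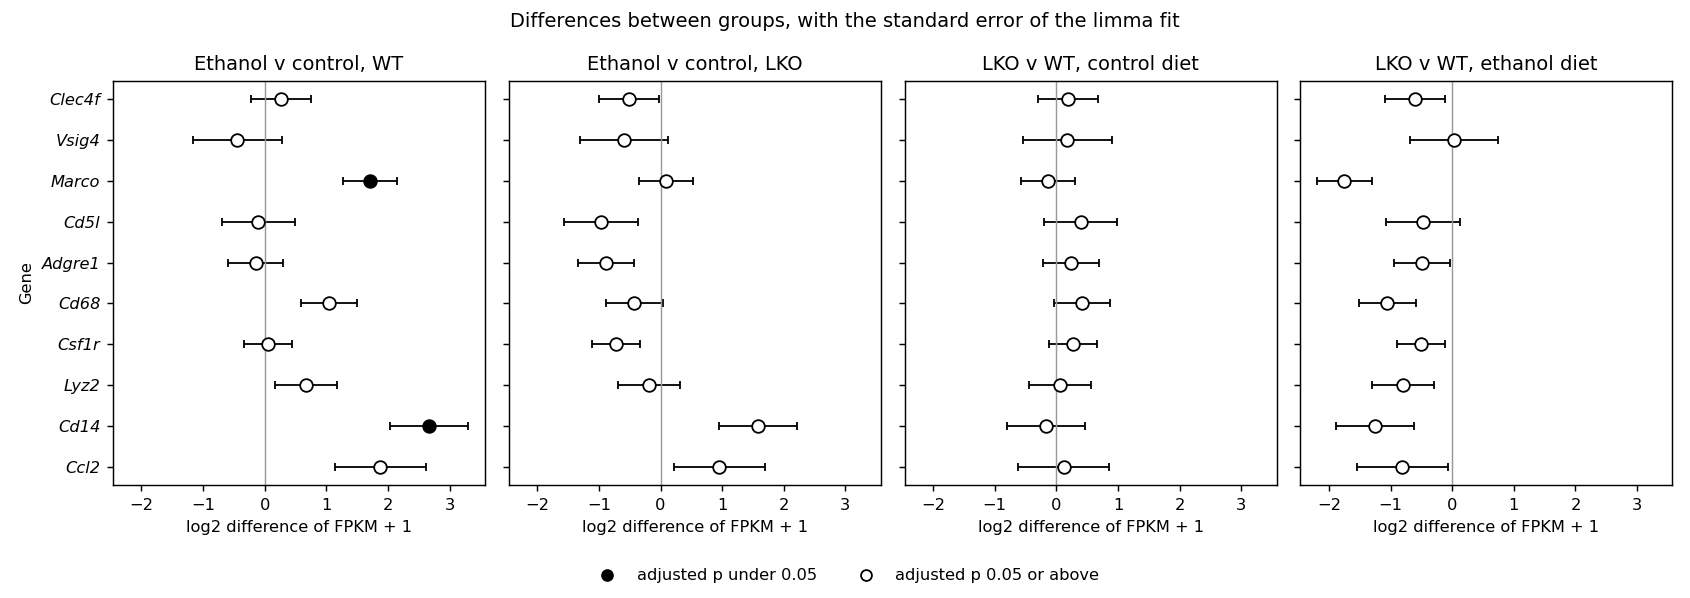
Log2 differences of FPKM + 1 of the 10 genes in 4 comparisons, with bars for the standard error of the limma fit and filled points where the adjusted p is under 0.05. Only Cd14 and Marco in the comparison of ethanol with control diet in WT are filled, at 2.67 and 1.71.

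Over the 10 genes, 2 passed the test with ethanol in WT, Cd14 and Marco, both higher, where 4.18% of all genes tested passed and 2.58% were higher. The groups did not overlap for 3 genes, Cd14, Ccl2 and Marco, all higher, against 5.62% of all genes. Ccl2 passed the filter on low values through its WT ethanol libraries, so its place in this count and in the others of groups that stood apart carries no weight. The median difference was 0.47, against -0.024 over all genes. Voom on the whole reads called none of the 10 there, with 4 at an unadjusted p under 0.05 (18.1% of all genes in that fit), and limma called none when all genes above 0 in at least 4 libraries were kept. Without WT ethanol library 2, 3 genes passed, with Cd68 as the third (9.48% of all genes passed), and 4 stood apart, the same 3 and Cd68, all higher (15.6% of all genes). Ethanol in LKO called none of the 10 in limma (0.425% of all genes passed), with 1 at an unadjusted p under 0.05 (Cd14, against 9.19% of all genes) and none called by voom on the whole reads, and 7 of the 10 differences were negative with a median of -0.47. Without LKO ethanol library 2, 9 of 10 were negative with a median of -0.96, none was called and 4 were at an unadjusted p under 0.05 (6.16% of all genes). LKO against WT called none of the 10 on the control diet (0.00885% of all genes, none by voom), with 0 of the 10 at an unadjusted p under 0.05 against 3.45% of all genes. There 8 of 10 differences were positive, with a median of 0.18 against -0.103 over all genes. On the ethanol diet LKO against WT also called none (0.0797% of all genes, none by voom), with 2 at an unadjusted p under 0.05, Marco and Cd68 (11.9% of all genes), 9 of 10 differences negative and a median of -0.7, against -0.031 over all genes.

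Among markers of other cells in LKO against WT on the ethanol diet, with none called, hepatocyte markers were positive for 8 of 10 (median 0.50), endothelial markers for 9 of 10 (0.18) and stellate cell markers for 3 of 10 (-0.31). Without WT ethanol library 2 the same counts were 6, 2 and 0 of 10 (0.14, -0.10 and -0.55), while all 10 genes were then negative, with a median of -0.82, and the median over all genes fell to -0.23. The part of these cells in the differences of the 10 genes was not tested.

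The interaction called none of the 10 in limma or in voom, as of all genes (0%), with 2 at an unadjusted p under 0.05, Marco at -1.62 and Cd68 at -1.47 (3.2% of all genes). All 10 interaction values were negative, meaning a smaller or more negative ethanol difference in LKO, with a median of -0.86 against 0.089 over all genes, which turned to -0.12 over all genes without WT ethanol library 2 (-0.99 for the 10). Without LKO ethanol library 2 the median of the 10 was -1.31, with none called and 4 at an unadjusted p under 0.05 (5.12% of all genes). The 10 genes were measured in the same libraries, and Clec4f, Cd5l and Vsig4 moved together within groups, so this count is not that of 10 independent results. In the interaction hepatocyte markers were positive for 8 of 10 (median 0.37), endothelial markers for 7 of 10 (0.31) and stellate cell markers for 4 of 10 (-0.18), and 7, 5 and 1 of 10 (0.10, -0.085 and -0.54) without WT ethanol library 2; their part was not tested either. Averaged over both genotypes, ethanol called Cd14 alone of the 10 (7.78% of all genes), with Marco at 0.90 (adjusted p = 0.0882) and Ccl2 at 1.41 (adjusted p = 0.1101). Averaged over both diets, LKO against WT called none in limma or in voom (0.142% of all genes), with Marco alone at an unadjusted p under 0.05 (10.4% of all genes).

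Single libraries carried much of the spread. LKO ethanol library 2 was the highest of all 16 for 5 genes (Clec4f, Vsig4, Lyz2, Cd14 and Ccl2) and among the highest 4 for 9, whereas LKO ethanol library 3 was the lowest for 5 (Clec4f, Cd5l, Adgre1, Cd68 and Csf1r) and among the lowest 4 for 8, as was library 4. In the fit without LKO ethanol library 2, LKO was below WT on the ethanol diet for 3 of the 10 genes past the threshold (Marco, Cd14 and Ccl2, where 0.372% of all genes passed), with nothing read from Ccl2, which had entered the test through WT ethanol, and all 10 differences were negative, with a median of -1.13. That library was singled out by its high values of these same genes. Leaving it out lowers LKO ethanol for most of them by that choice. The fits without it, here and above, are therefore a description and no evidence of a difference.

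**Figure D3:**
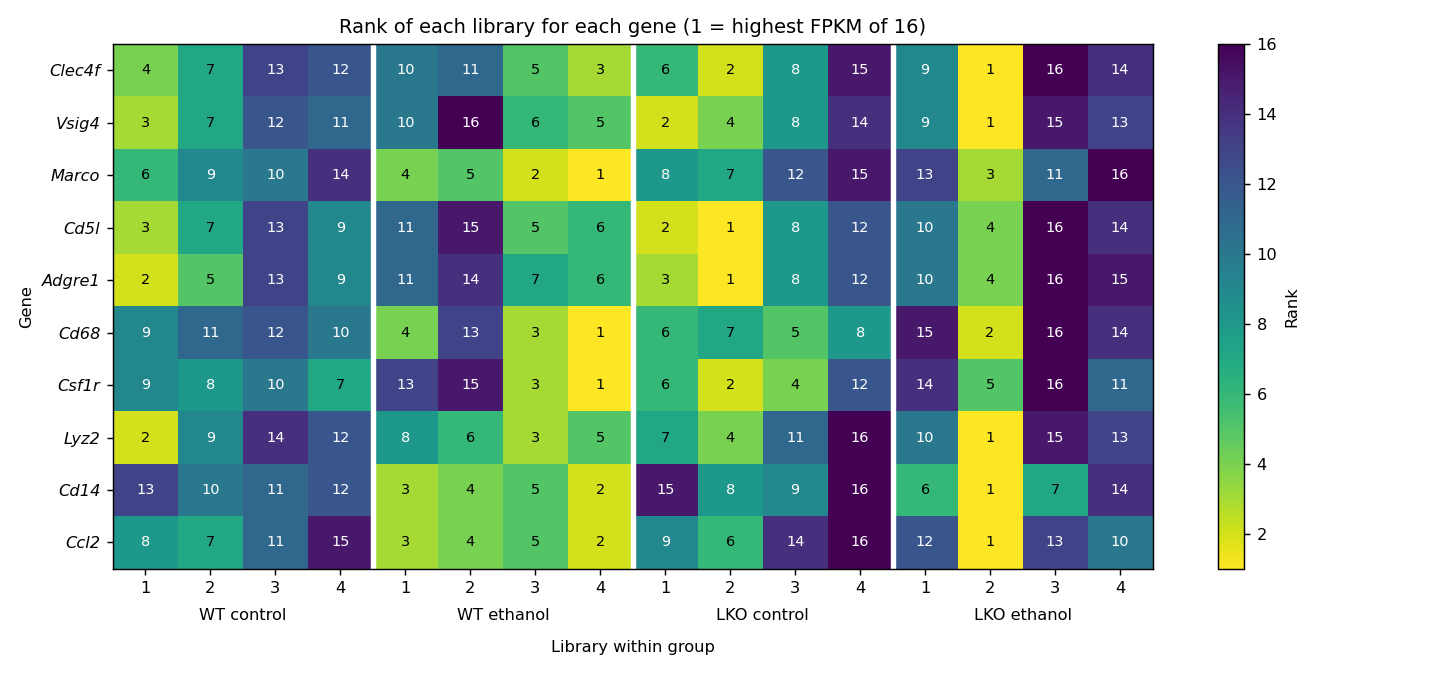
Rank of each of the 16 libraries (columns, by group and library number) for each of the 10 genes (rows), from 1 for the highest FPKM to 16 for the lowest, printed in each cell and coloured. Library 2 of LKO ethanol holds rank 1 for 5 genes, and the other 3 libraries of that group hold rank 9 or lower for every gene but Cd14.

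To set each library's other markers against its level of a gene particular to Kupffer cells, the other 9 genes were also taken as a percentage of Clec4f FPKM in the same library, a scale chosen after the values had been seen and given as a description with no test. Which liver cells carried the RNA of Cd14, Ccl2 and the other genes was not tested, so a percentage is not a level per Kupffer cell. On this scale, Cd14 stood apart between the diets in both genotypes. Cd14 was 1.99%, 3.91%, 7.13% and 4.38% of Clec4f in WT control libraries 1 to 4 and 55.9%, 32.9%, 11.1% and 33.2% in WT ethanol. In LKO it was 1.55%, 2.75%, 4.66% and 3.05% on control diet and 10.7%, 45.3%, 26.4% and 4.82% on ethanol, so library 4, which had overlapped by FPKM, was just above the LKO control range on this scale.

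On the control diet Marco was 10.6 to 20.2% of Clec4f in WT and 10.2 to 13.3% in LKO. On ethanol it was 36.8 to 52.5% in WT, with all 4 libraries above the controls, and 11.3 to 31.6% in LKO, where libraries 2 and 3 were high and libraries 1 and 4 were inside the control range. Marco was the 1 of these 9 genes whose LKO and WT groups stood apart on the ethanol diet, lower in LKO (0.106% of the 11297 other genes tested were lower without overlap). Cd68 stood lower as well without WT ethanol library 2 (2 of the 9, against 0.168%). In LKO ethanol library 2, which was among the highest for nearly every gene, Marco was 20.1% of Clec4f, below every WT ethanol library.

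Adgre1 went the other way. It was 9.71 to 12.5% of Clec4f in WT control and 11.1 to 11.6% in LKO control, and 6.695 to 8.89% in WT ethanol and 6.83 to 8.19% in LKO ethanol. The diets stood apart in both genotypes, with every ethanol library lower. Cd5l was 117 to 138% of Clec4f in LKO control and 85.97 to 97.2% in LKO ethanol, lower without overlap, while it overlapped in WT (89.3 to 121% and 46.6 to 121%), and Lyz2 was 74.2 to 96.8% and 99.98 to 119% in LKO, higher on ethanol without overlap.

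Of the 9 genes, 3 were higher relative to Clec4f with ethanol in WT (Cd14, Marco and Ccl2, the last with the limit given above, against 1.48% of other genes) and 1 was lower (Adgre1, against 4.22%). In LKO, 2 were higher (Cd14 and Lyz2, against 2.89%) and 2 lower (Adgre1 and Cd5l, against 0.23%). Of 25 further macrophage genes, 1 was higher in LKO (Cd83) and 1 lower (Aif1), and of 14 further Kupffer cell genes 1 was lower (Folr2). Genes that follow Clec4f across libraries vary less on this scale. The shares over all other genes, here and above, are therefore an unlike background for macrophage genes. Without WT ethanol library 2, Cd68 also stood higher in WT (4 of the 9, against 2.38%). Of 39 other macrophage and Kupffer cell genes tested, 2 stood apart the same way in both genotypes, where 0.752% of other genes were higher in both and 0.0974% lower in both. They were Cd83, an activation marker of antigen-presenting cells, which was higher (0.891 to 1.68% in WT control and 1.86 to 4.096% in WT ethanol, 0.866 to 1.22% in LKO control and 2.88 to 3.98% in LKO ethanol), and Folr2, a folate receptor of resident macrophages, which was lower (18.7 to 23.9% and 12.7 to 16.6% in WT, 23.03 to 26.9% and 10.7 to 16.04% in LKO). Aif1, a calcium-binding protein of macrophages, was lower in both genotypes as well without WT ethanol library 2 (0.106% of other genes). In WT, Mrc1, a mannose receptor of macrophages, and Paqr9 stood lower, and without that library Msr1, C1qc, Ctss and Fcgr3 stood higher.

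**Figure D4:**
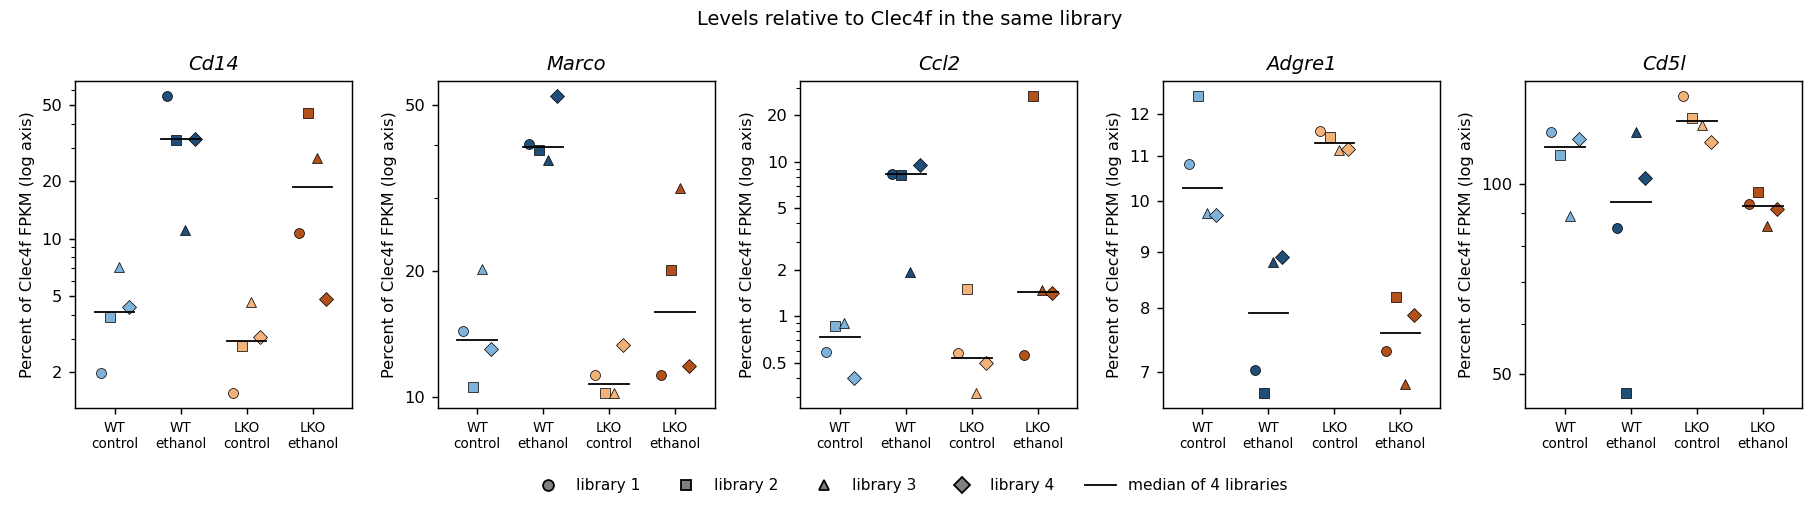
FPKM of Cd14, Marco, Ccl2, Adgre1 and Cd5l as a percentage of Clec4f FPKM in the same library (log axis), with symbols for library number and a line at the group median. Cd14 is higher and Adgre1 lower in every ethanol library than in every control library of the same genotype, and Marco stands apart from the controls in WT only.

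Other genes of the same cells were tested from lists. Of 15 further Kupffer cell genes, 14 were tested, and with ethanol in WT 1 was called (4.18% of all genes), Paqr9, lower (-2.09, SE 0.55, adjusted p = 0.0402, and adjusted p = 0.0502 without WT ethanol library 2), and none by voom. Paqr9 was 48.85 to 212% of Clec4f in WT control and 8.075 to 156.7% in LKO ethanol. For C1qb these ranges were 99.05 to 106.9% and 93.23 to 118.3%. Which cells the Paqr9 RNA came from was not tested, so its calls are not read as a change of Kupffer cells. In WT, 6 of the 14 differences were positive with a median of -0.12, and 9 of 14 with a median of 0.21 without WT ethanol library 2. Ethanol in LKO called none of the 14 in limma or voom (3 at an unadjusted p under 0.05, against 9.19% of all genes), with a median of -0.36 and Folr2 at -1.28 (adjusted p = 0.2501). In LKO, 1 of the 14 was called lower without WT ethanol library 2, whose spread the fit shares (3.62% of all genes). Over both genotypes 2 of the 14 were called, both lower (7.78% of all genes), Paqr9 among them (-1.56, adjusted p = 0.0204). All 25 further macrophage genes were tested, such as the complement genes C1qa, C1qb and C1qc, and limma and voom called none with ethanol in either genotype. In limma 1 of the 25 was at an unadjusted p under 0.05 in WT (19.7% of all genes) and 3 in LKO (9.19%). The median difference of the 25 was 0.33 in WT, with 17 of 25 positive (0.57 and 23 of 25 without WT ethanol library 2, again with none called), and -0.37 in LKO, with 3 of 25 positive. Cd83 had the smallest p in both (0.72 in WT and 0.61 in LKO) and was called over both genotypes (0.66, adjusted p = 0.0275). Cd83 was below 1 FPKM in most control libraries and passed the filter mainly through ethanol libraries, so nothing is read from that call or from its standing apart.

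In the endotoxin receptor pathway, 22 of 26 genes were tested and none was called by limma or voom with ethanol in WT (14 positive, median 0.10) or in LKO (20 positive, median 0.24). In limma 3 and 2 were at an unadjusted p under 0.05, against 19.7% and 9.19% of all genes. Irak2, a kinase below the Toll-like receptors, had the smallest p in WT and in LKO. It was the 1 of the 22 called over both genotypes (0.62, adjusted p = 0.01595), where 7.78% of all genes were called. Without WT ethanol library 2, ethanol called 2 of the 22 in WT, both higher (9.48% of all genes): Irak2 (0.67, SE 0.17, adjusted p = 0.0256) and Ticam1, an adaptor of TLR4 and TLR3 (0.65, SE 0.19, adjusted p = 0.0394). There 20 of 22 differences were positive, with a median of 0.41. In LKO Irak2 alone was called without it (0.70, SE 0.16, adjusted p = 0.02703, against 3.62% of all genes), and over both genotypes 5 were, all higher (20.5% of all genes). Tlr4 itself was below 1 FPKM in every library (0.186 to 0.926 FPKM) and was not tested. Of 26 macrophage cytokines and chemokines, 16 were tested, and 1 was called with ethanol in WT, Ccl9, a chemokine of myeloid cells (1.53, SE 0.37, adjusted p = 0.02802), where 4.18% of all genes were called, with 1 called by voom. Ccl9 was 1.05 in LKO (adjusted p = 0.304) and was called over both genotypes (1.29, adjusted p = 0.00596), where 7.78% of all genes were. Of the 6 colony-stimulating factor receptors and ligands listed, 5 were tested, Csf1r among them, and with all libraries none was called in any comparison by limma without weights or by voom, nor reached an unadjusted p under 0.05 in that limma fit. Array weights called Csf1r lower with ethanol in LKO. Csf1, a ligand of CSF1R, measured 2.97 to 4.65 FPKM in WT control and 2.15 to 7.34 in WT ethanol.

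Markers of recruited myeloid cells were low. Of 18 monocyte and neutrophil genes 4 passed the filter, and none was called with ethanol in WT or LKO by limma or voom. In limma 1 and 3 of the 4 were at an unadjusted p under 0.05, against 19.7% and 9.19% of all genes. The summed level of the 18 was 8.66 to 20.3 FPKM in WT control, 17.8 to 43.4 in WT ethanol, 12.4 to 22.4 in LKO control and 10.6 to 47.03 in LKO ethanol. Ccr2, the receptor of CCL2 on monocytes, measured 0.219 to 0.4402 FPKM in WT control and 0.125 to 1.38 in WT ethanol, and Ly6c2, a monocyte marker that has a near-identical copy, 0.107 to 0.646 and 0 to 0.553. Itgam, an integrin of monocytes and neutrophils, measured 0.1698 to 0.299 FPKM in WT control and 0.403 to 2.602 in WT ethanol. These groups did not overlap, where 5.62% of all genes tested stood apart and higher. In LKO it measured 0.148 to 0.511 on control diet and 0.282 to 0.575 on ethanol. Itgam is 1 of the 18, was under the filter and was added after values had been seen, so nothing is read from its standing apart. The neutrophil markers Ly6g and Mpo were at 0 in every WT control library, and Ngp and Mpo in every WT ethanol library. The neutrophil gene Retnlg was called over both genotypes (0.91, adjusted p = 0.0172), but it passed the filter through ethanol libraries alone, so nothing is read from it. The sums overlapped between diets in both genotypes, and their part in the rise of Cd14, Marco and Ccl2 was not tested. Among 10 genes of lipid-associated macrophages, 8 were tested, and Cd63 (2.77, SE 0.54, adjusted p = 0.0107) and Lpl (1.94, SE 0.53, adjusted p = 0.0481) were called higher with ethanol in WT, where voom called 1 of the 8 and limma also Cd9 without WT ethanol library 2 (4.18% of all genes with that library, 9.48% without it). Fabp5 was called lower in LKO (-2.77, SE 0.54, adjusted p = 0.0323), where voom also called 1 and 0.425% of all genes were called. These 3 genes are also expressed outside macrophages.

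Markers of other liver cells were checked beside the 10 genes. With ethanol in WT, no hepatocyte (10 tested), sinusoidal endothelial (10), cholangiocyte (2) or blood cell (6) marker was called by limma or voom, with 2, 3, 1 and 1 at an unadjusted p under 0.05 (19.7% of all genes). There hepatocyte markers were positive for 2 of 10 (median -0.43), endothelial markers for 4 of 10 (-0.31) and stellate cell markers for 6 of 10 (0.24), which became 5, 6 and 9 of 10 (0.064, 0.17 and 0.75) without WT ethanol library 2. Of 10 stellate cell markers Des was called (0.93, SE 0.23, adjusted p = 0.0296) and of 4 lymphocyte markers tested Ighm was called, lower (-0.88, SE 0.23, adjusted p = 0.0411), against 4.18% of all genes. Ighm was also lower in LKO (-1.17, SE 0.23, adjusted p = 0.03298), where 0.425% of all genes were called, and voom called no stellate cell or lymphocyte marker in WT or LKO. Without WT ethanol library 2, 4 endothelial and stellate cell markers were called of the 20 in WT, all higher (9.48% of all genes): Lyve1 (2.58), Cdh5 (0.86), Pdgfrb (0.88) and Des (0.75). Lyve1 was also called in LKO (1.75) in that fit (3.62% of all genes). With all libraries over both genotypes, Lyve1 (1.75, adjusted p = 0.0208) and Sox9 (0.79, adjusted p = 0.01604) were called higher. In that comparison 1 of the 10 stellate cell markers and 1 of the 4 lymphocyte markers were called too, where 7.78% of all genes were. Pdgfrb and Sox9 passed the filter on low values mainly through ethanol libraries, so nothing is read from their calls. Hepatocyte markers summed to 64275 to 78448 FPKM in WT control and 47119 to 79135 in WT ethanol, and blood cell markers to 148 to 238 and 102 to 2162, the last value being WT ethanol library 2 (102 to 288 without it). Their part in the differences of the 10 genes was not tested.

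The genes whose level followed Clec4f most closely over the 15 libraries other than WT ethanol library 2, by Pearson correlation of log2(FPKM + 1), were C1qb (0.985), C1qc (0.973), Cd53 (0.973), C1qa (0.967) and Tyrobp (0.967). Those closest to Cd14 were Serinc5 (0.965), Clec4d (0.963), Cd93 (0.962), Haus8 (0.962) and Dusp5 (0.96). The 2 lists shared no gene. These correlations across libraries pool the 4 groups, the points share the diet and the sides, and they are given as a description.

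Since ZFP36L1 acts through AU-rich elements, the 3′ untranslated regions of the 10 genes (GENCODE M21, GRCm38) were searched for the core TATTTAT. None of the 10 held it, against 26.1% of 21037 genes, nor the longer TTATTTATT (7.2% of genes). The pentamer ATTTA, added after these counts had been seen, stood in 6 of the 10 (Adgre1, Ccl2, Cd14, Clec4f, Csf1r and Vsig4), against 62.8% of genes. The regions of the 10 genes were shorter than most, with a median of 463 bases against 847, and no match says only that these letters are not in the annotated region.

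All 10 genes are protein-coding. On GRCm38, Clec4f is ENSMUSG00000014542, chromosome 6, 83644542 to 83656187, minus strand, Vsig4 is ENSMUSG00000044206, chromosome X, 96247203 to 96293438, minus strand, Marco is ENSMUSG00000026390, chromosome 1, 120474538 to 120505024, minus strand and Cd5l is ENSMUSG00000015854, chromosome 3, 87357881 to 87371073, plus strand. Adgre1 is ENSMUSG00000004730, chromosome 17, 57358691 to 57483527, plus strand, Cd68 is ENSMUSG00000018774, chromosome 11, 69664213 to 69666153, minus strand and Csf1r is ENSMUSG00000024621, chromosome 18, 61100598 to 61132149, plus strand. Lyz2 is ENSMUSG00000069516, chromosome 10, 117277331 to 117282321, minus strand, Cd14 is ENSMUSG00000051439, chromosome 18, 36725067 to 36726798, minus strand and Ccl2 is ENSMUSG00000035385, chromosome 11, 82035571 to 82037453, plus strand.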

How the data were processed

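Liver RNA of 16 libraries in 4 groups of 4 was analysed from the table of FPKM values that the authors deposited. Per the submitters' processing notes, fastp, STAR 2.6.1, HTSeq and DESeq2 were used with the build mm10, with no parameters or annotation given in the sources used here. Library preparation is given only as an Illumina standard, per the labels' protocols. Strandedness is not stated, so overlapping or antisense genes can share reads. Positions came from GENCODE M21.

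Whole reads were worked out from the FPKM steps: 100% of values lay within 0.1 of a whole read, and at most 0.0606% of a library's total stayed unexplained. They served for read counts and for the voom alternative. Counting error aside, precision is set by 4 libraries per group.

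Genes with at least 1 FPKM in at least 4 libraries were kept (11298, with all 10 markers among them), and limma 3.58.1 (R 4.3.3) was run on log2(FPKM + 1) (group means over all 16 libraries, eBayes with trend, two-sided, Benjamini-Hochberg over all genes kept, called at an adjusted p under 0.05). This scale understates changes of low genes. The planned exact permutation test for markers under the filter was not needed. The procedure was tested on simulated data. The members and lists were chosen with earlier results of these data known. Named genes were the 10 members, Zfp36l1, the genes of each list that were called in a comparison (at most 4) or otherwise the 2 with the smallest p, and the 5 genes closest to Clec4f and to Cd14, and 1 gene of these lists is not reported here. Tlr4, Ccr2, Ly6c2, Itgam, Ly6g, Mpo, Ngp and Csf1 and the gene lists' values relative to Clec4f were added after values had been seen. Alternatives changed the pseudocount, filter, scaling, weights, model, samples and a term for the sides. Promoters were read from a RefSeq table (6 of 10 markers found). Figures were drawn with matplotlib 3.10.9.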

Additional observations from a re-analysis of the deposited data

Results flagged for a closer look

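In LKO ethanol library 2, Ccl2 measured 29.1 FPKM, while the other 3 libraries of the group measured 0.285 to 0.442. On the scale of log2(FPKM + 1), the gap to the nearest library was 0.963 of the group's whole range, above Dixon's 95% critical value for 4 samples. This was the 1 of 40 groups tested (10 genes in 4 groups) in which a library stood out so far, and chance alone marks about 1 in 20 groups. The same library held the highest Cd14, Clec4f, Vsig4 and Lyz2 of all 16.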

How the results depend on the processing

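The 2 calls with ethanol in WT (Cd14 and Marco) became 1 (Cd14) with a pseudocount of 0.1 or 0.01, with equal sums, with equal sums of nuclear genes and with only the groups compared in the fit. They became 0 with all genes above 0 in at least 4 libraries kept (20520 genes) and with voom on whole reads, and 4 with array weights, whose fit did not fully converge. Leaving out each library in turn gave 0 to 3 calls, with 0 without any 1 of the WT control libraries or WT ethanol library 4. Cd14 was called in 11 of those 16 fits and Marco in 7, and the cause was not tested. The difference of Cd14 stayed between 2.44 and 2.98 and that of Marco between 1.44 and 1.92 in them.

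Array weights gave 2 calls with ethanol in LKO (Adgre1 and Csf1r, lower), 2 between genotypes on ethanol, 3 for ethanol over both genotypes and 3 for LKO against WT over both diets, where 9.89%, 4.41%, 25.9% and 14% of all genes were called, and 15.3% with ethanol in WT. A term for the side without WT ethanol library 2 gave 1 (Marco), 3 and 1 (Marco) in the last 3 of these (1.58%, 32.6% and 11.1% of all genes). Leaving out each library gave 0 to 3 calls between genotypes on ethanol and 1 to 2 for ethanol over both genotypes (Cd14 in all 16, with Marco without WT ethanol library 2 or LKO ethanol library 4). The interaction called 0 in every alternative. With ethanol in WT, the median over all genes was -0.024, and it moved to 0.26 under array weights, 0.17 when WT ethanol library 2 was dropped and -0.12 under equal sums, and between genotypes on ethanol it moved from -0.031 to -0.34 under array weights.

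No paired analysis was possible because the labels give no replicate numbers. Each title has a number of its own, and in the order of the records many are consecutive between the diets of a genotype, but the labels do not say whether they mark an animal, a cohort or a pair, so whether that order pairs libraries is unknown and no fit was blocked on it.

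Among differences that did not pass the threshold, some changed sign. Array weights gave Vsig4 0.23 (ethanol in WT), Vsig4 -0.9988 (LKO against WT on ethanol diet), Marco -0.34 (ethanol in LKO), Marco 0.0050 (LKO against WT on control diet), Cd5l 0.30 (ethanol in WT) and Adgre1 0.11 (ethanol in WT). A side term without WT ethanol library 2 gave Vsig4 0.52 (ethanol in WT), Vsig4 -0.93 (LKO against WT on ethanol diet), Cd5l 0.50 (ethanol in WT) and Adgre1 0.18 (ethanol in WT). Quantile scaling gave Cd5l 0.042 (ethanol in WT). Scaling to equal sums gave Csf1r -0.077 (ethanol in WT). Scaling to equal sums of nuclear genes gave Csf1r -0.0030 (ethanol in WT). When each library was left out in turn, the ranges that crossed 0 were Clec4f -0.053 to 0.52 (LKO against WT on control diet), Vsig4 -0.79 to 0.32 (ethanol in WT), Vsig4 -0.12 to 0.61 (LKO against WT on control diet), Vsig4 -0.74 to 0.41 (LKO against WT on ethanol diet), Vsig4 -0.92 to 0.23 (the interaction), Marco -0.39 to 0.38 (ethanol in LKO), Marco -0.30 to 0.094 (LKO against WT on control diet), Cd5l -0.43 to 0.34 (ethanol in WT), Adgre1 -0.38 to 0.057 (ethanol in WT), Csf1r -0.22 to 0.31 (ethanol in WT), Lyz2 -0.61 to 0.14 (ethanol in LKO), Lyz2 -0.21 to 0.45 (LKO against WT on control diet), Cd14 -0.32 to 0.0094 (LKO against WT on control diet), Ccl2 -0.17 to 1.35 (ethanol in LKO) and Ccl2 -0.14 to 0.25 (LKO against WT on control diet).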
